A study of Mus musculus with 18 samples.

Results

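Rapamycin was compared with its vehicle in mouse leukemia cells that carried an active base editor, across every expressed gene. The comparison used 6 of the 18 RNA-seq libraries of the series, 3 labelled intact_BE with rapamycin and 3 labelled intact_BE with vehicle, and they were chosen by these labels. All libraries came from RN2, a mouse acute myeloid leukemia (AML) cell line driven by the MLL-AF9 fusion and NrasG12D, grown in culture and labelled as genotype WT. Cells of both groups had received the intact BE construct, named evoA1 after its deaminase in the count table, by lentiviral transduction. A base editor joins a Cas9 nickase to a deaminase and converts single bases without cutting both strands. The cells were sorted on day 5 after transduction. During the last 24 h before sorting the rapamycin group was given 1 nM rapamycin and the control group the vehicle. Both groups therefore held the same editor, and differed by the drug only as far as the labels state. A second editor, seBE, was given the same drug and vehicle in 6 further libraries, and these serve below as the comparison. The series title names base editing under the control of a small molecule, and the labels do not say what in seBE may bind the drug, so an effect of rapamycin on the cell and on that editor cannot be told apart. Cells with the nickase alone (nCas9) or with an inactive deaminase had no rapamycin arm. No library of untransduced cells with rapamycin was analysed here. The labels call the replicates biological but do not say that they were separate transductions. The p-values therefore measure only the spread between such libraries within a group, pooled over all 18 libraries of the series.

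Rapamycin binds the small protein FKBP12 (gene Fkbp1a), and the pair docks onto the kinase mTOR and inhibits mTOR complex 1 (mTORC1). mTORC1 senses amino acids and growth factors, drives translation, in particular of mRNAs for ribosomal proteins and translation factors, and raises the activity of the transcription factors ATF4, SREBP1, SREBP2 and HIF1, which run amino acid, lipid and glycolytic genes. When it is inhibited, autophagy, lysosomal genes under TFEB and signalling through the insulin and growth factor receptors, which mTORC1 restrains by feedback, are known to rise in many cells. In RNA-seq of whole cells a change of transcript level is read, not translation or phosphorylation.

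The 6 libraries held 14789497 to 23284932 counts in genes, 14789497 to 18590586 under vehicle and 20044158 to 23284932 under rapamycin, so every rapamycin library was deeper. Levels are given as CPM, a gene's counts scaled to a common library size, after correction by the trimmed mean of M-values (TMM). At equal depth, vehicle libraries detected 17615, 18294 and 18544 genes and rapamycin libraries 16579, 17682 and 16499, so rapamycin replicates 1 and 3 detected the fewest. The cells carried the markers of their label. The 6 leukemia genes Hoxa9, Hoxa10, Meis1, Mef2c, Myb and Kit summed to 2060 to 2120 CPM under vehicle and 2170 to 2220 CPM under rapamycin, and the 10 myeloid markers to 4330 to 4640 and 4190 to 4320 CPM. Of the markers of other lineages, 4 of 5 for T and NK cells, 3 of 4 for B cells, 2 of 3 for fibroblasts and 2 of 3 for endothelium had 0 counts in all 6 libraries. Of the 5 erythroid markers 2 had 0 counts, and their sum was 0.284 to 1.39 CPM under vehicle and 0.922 to 1.56 CPM under rapamycin. Of the 4 megakaryocyte markers 1 had 0 counts, and the sums were 6.69 to 9.31 and 9.36 to 13.2 CPM. Most of that was Itga2b, with means of 7.57 CPM under vehicle and 11.4 CPM under rapamycin. The 5 markers of mast cells and basophils summed to 121 to 135 CPM under vehicle and 168 to 188 CPM under rapamycin. Most of that rise lay in Gata2, also a gene of stem and megakaryocytic cells, from a mean of 84.2 to 126 CPM. Means went from 25.1 to 31.2 CPM for Cpa3, 13.4 to 16.2 CPM for Mcpt8 and 7.25 to 5.9 CPM for Ms4a2. The IgE receptor gene Fcer1a had 0 counts. In bulk RNA, more cells of a type and more RNA per cell cannot be told apart.

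In all, 497 of 14985 tested genes passed the threshold (3.32%), an adjusted p under 0.05 in edgeR's quasi-likelihood test with Benjamini-Hochberg adjustment over all tested genes. Of these, 296 rose (1.98% of tested genes) and 201 fell (1.34%). These shares are set beside the counts of list members below, but they are not matched for level. For lists of abundant genes they are too low a background. Of genes over 100 CPM 8.38% passed, in either direction. Most changes were small. The median size over the 497 was 0.423 on the log2 scale, and 44 reached a 2-fold change, 23 upward and 21 downward. Without a threshold on direction, 49.4% of tested genes had a log2 fold change above 0 and the median over all of them was -0.00362. In these called genes all 3 rapamycin libraries lay on the same side. Measured against the vehicle mean, the 296 risen genes had a median log2 level of 0.446, 0.407 and 0.37 in rapamycin replicates 1, 2 and 3, and the 201 fallen genes -0.488, -0.388 and -0.416. Their medians in the 3 vehicle libraries were between -0.033 and 0.029. Since these genes were chosen on the same libraries, the values are a description. Over all tested genes the 3 treated libraries did not stand apart alike. On the first principal component, the main axis of variation over the 18 libraries, vehicle replicates 1, 2 and 3 lay at -22.76, -15.67 and -14.83. Rapamycin replicates 1, 2 and 3 lay at -33.65, -15.47 and -40.46, so replicate 2 was among the vehicle libraries. The 2 groups did not overlap in 493 of the 497 called genes and in 22.3% of all tested genes. A lack of overlap, where given below for a called gene, therefore describes it and adds no further support. Calls were most frequent among abundant transcripts, 8.38% of genes over 100 CPM against 0.105% of those under 1 CPM. The number of calls depended on the libraries: it was 216 without rapamycin replicate 1, 223 without vehicle replicate 2 and 231 without vehicle replicate 3, and 67 with rapamycin replicate 2 as the only rapamycin library. Each of 158 genes, 100 risen and 58 fallen, passed in all 6 fits that left out 1 of the compared libraries, and below a call is said to have held when it did so.

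**Figure D1:**
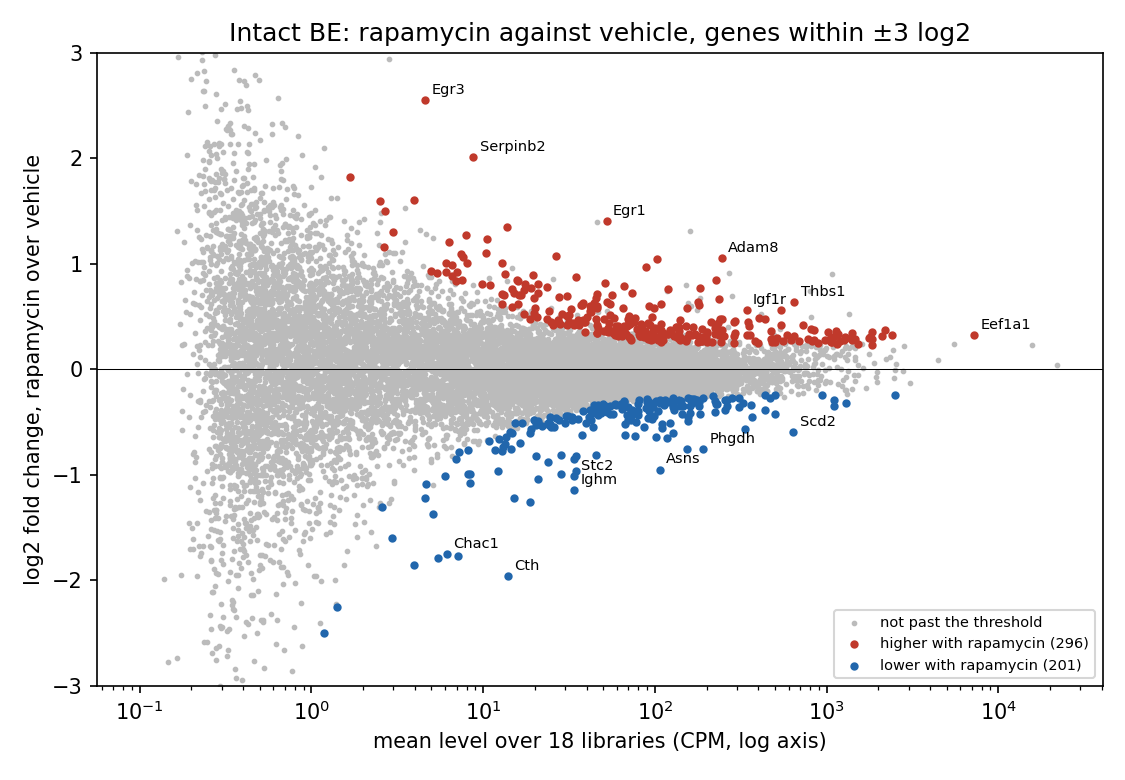
Each point is a tested gene in the intact BE libraries, with its mean level over 18 libraries in CPM (x, log axis) and its log2 fold change, rapamycin over vehicle (y). Red points (296) rose and blue points (201) fell at an adjusted p under 0.05; of the 69 genes outside the plotted range of 3 on the log2 scale, 3 passed. Genes of amino acid supply such as Cth, Chac1 and Asns lie at the lower edge, and Egr1, Egr3 and Serpinb2 at the upper edge.

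The drug's receptor and target were little changed as transcripts. Fkbp1a stood at 211, 206 and 216 CPM under vehicle and 201, 195 and 199.8 CPM under rapamycin (log2 -0.09 ± 0.07, adjusted p = 0.632), and the groups did not overlap. Mtor stood at 69.1, 69.6 and 69.5 CPM under vehicle and 67.8, 72.2 and 67.5 CPM under rapamycin (log2 -0.01 ± 0.08, adjusted p = 0.992), with overlapping groups. Rptor, the mTORC1 scaffold (log2 0.14 ± 0.10, adjusted p = 0.552), Tsc2, an upstream inhibitor (log2 -0.15 ± 0.10, adjusted p = 0.525), and the substrates Rps6kb1 (log2 -0.18 ± 0.08, adjusted p = 0.27) and Eif4ebp1 (log2 -0.08 ± 0.11, adjusted p = 0.843) did not pass. Of 44 tested genes of mTOR complexes, substrates and regulators, 1 rose and 2 fell, with a median log2 fold change of -0.03, and all 3 calls held. The riser was Rps6, which encodes a ribosomal protein that S6 kinase phosphorylates (log2 0.31 ± 0.06, adjusted p = 0.00249). The fallers were Sesn2, encoding a leucine sensor that ATF4 induces, from 36.7, 36.9 and 41.2 CPM to 24.2, 25.5 and 24.8 CPM (log2 -0.62 ± 0.10, adjusted p = 0.000179), and Fkbp4, encoding an immunophilin partner of HSP90 (log2 -0.36 ± 0.07, adjusted p = 0.00168). For these 3 genes every rapamycin library lay outside the vehicle range, as in 493 of the 497 called genes.

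Genes of amino acid synthesis and one-carbon metabolism under ATF4 had the lowest median of the gene lists. ATF4 is the transcription factor of the integrated stress response, and its mRNA translation is raised both by amino acid shortage and by mTORC1. Of 15 tested enzymes in the list, 11 fell and none rose, against 1.34% of all genes that fell. All 15 had a log2 fold change below 0, and in all 15 the 3 rapamycin libraries lay below the 3 vehicle libraries, where 22.3% of all genes had groups that did not overlap in either direction. The list's median log2 fold change was -0.75, and its median per rapamycin library was -0.731, -0.640 and -0.699 against the vehicle mean. All 11 calls held, and 8 fell with rapamycin replicate 2 as the only rapamycin library.

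Asns makes asparagine and had the lowest adjusted p among fallen genes. Its levels were 132, 137 and 111 CPM under vehicle and 72.3, 60.8 and 63.2 CPM under rapamycin (log2 fold change -0.95 ± 0.09 (SE), adjusted p = 8.36e-09). The highest treated library was far under the lowest control. All 3 enzymes of the serine pathway fell. Levels of Phgdh were 194, 228 and 217 CPM in vehicle replicates 1, 2 and 3 and 125, 135 and 118 CPM in rapamycin replicates 1, 2 and 3. Phgdh encodes its first enzyme and fell (log2 -0.76 ± 0.08, adjusted p = 1.29e-07). Psat1, the next enzyme, stood at 547, 560.2 and 544 CPM and 432, 402 and 397 CPM (log2 -0.42 ± 0.06, adjusted p = 5.33e-05), and Psph, the last, at 37.1, 46.1 and 40.7 CPM and 24.8, 24.1 and 21 CPM (log2 -0.82 ± 0.12, adjusted p = 2.56e-05). In each of the 3 every treated library was below every control. Of the mitochondrial folate enzymes, Mthfd2 went from 177, 192 and 172 CPM to 94.3, 115 and 111 CPM (log2 -0.75 ± 0.08, adjusted p = 1.47e-07) and Shmt2 from 355 ± 28.6 to 240.1 ± 23.1 CPM (mean ± SD, n = 3) (log2 -0.57 ± 0.07, adjusted p = 4.2e-06). Their cytosolic counterpart Shmt1, listed with nucleotide synthesis, stood at 110.2, 106 and 113 CPM and 120.3, 107 and 118 CPM and did not pass (log2 0.07). The difference between the mitochondrial and the cytosolic form was not tested.

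The largest relative fall in the list that passed was that of Cth, encoding cystathionine gamma-lyase, which makes cysteine. Levels of Cth were 13.7, 22.3 and 12.9 CPM in vehicle replicates 1, 2 and 3 and 4.43, 3.87 and 4.15 CPM in rapamycin replicates 1, 2 and 3. The log2 fold change was -1.96 ± 0.25 (SE), adjusted p = 5.23e-06, and all 3 treated libraries sat near 4 CPM while vehicle replicate 2 stood above its 2 fellows. Chac1, which encodes an enzyme that degrades glutathione, went from 5.9, 8.57 and 5.95 CPM to 1.89, 2.8 and 1.37 CPM (log2 -1.75 ± 0.28, adjusted p = 0.000102). Gpt2, the mitochondrial alanine aminotransferase, went from 21.4, 29.3 and 21.6 CPM to 12, 13.2 and 9.8 CPM (log2 -1.04 ± 0.17, adjusted p = 0.000124). Pck2, the mitochondrial form of phosphoenolpyruvate carboxykinase, and Aldh18a1, an enzyme of proline synthesis, fell by 0.56 and 0.52. Aldh1l2 (log2 -2.40, at most 2.09 CPM in any library), Pycr1, Got1 and Mthfd1l lay below 0 without passing. Bcat1, which transaminates branched-chain amino acids and was named for its size of change, went from 18.4, 21.4 and 20.2 CPM to 9.96, 8.15 and 7.66 CPM (log2 -1.22 ± 0.16, adjusted p = 3.93e-06).

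The factor itself was lower too. Levels of Atf4 were 424, 449 and 417 CPM in vehicle replicates 1, 2 and 3 and 311, 348 and 328 CPM in rapamycin replicates 1, 2 and 3. Atf4 had a log2 fold change of -0.39 ± 0.07 (SE), adjusted p = 0.000579. Of 13 tested effectors of the integrated stress response, 6 fell, all 6 calls held, and the median was -0.42. Besides Atf4 and Sesn2 these were Trib3, a pseudokinase that ATF4 and CHOP induce, at 4.48, 8.91 and 6.11 CPM and 2.59, 2.09 and 0.975 CPM (log2 -1.77 ± 0.35, adjusted p = 0.00223), Stc2, which encodes the secreted stanniocalcin 2, at 34, 39.9 and 35.4 CPM and 19.6, 19.4 and 15.1 CPM (log2 -1.01 ± 0.13, adjusted p = 3.57e-06), Nupr1 (log2 -1.85) and Atf5 (log2 -0.54). Trib3 and Nupr1 were scarce, under 10 CPM in every library. Ddit3, which encodes the death-linked factor CHOP (12.5, 14.6 and 11 CPM and 12, 13.6 and 7.75 CPM, log2 -0.19), and Ppp1r15a (log2 -0.08) did not pass.

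Enzymes that charge tRNAs with amino acids followed. Of 19 tested cytosolic tRNA synthetases, 10 fell and none rose, against 1.34% of all genes that fell. In 18 the log2 fold change was below 0, and the median was -0.29. Leaving out any 1 of the 6 libraries left 7 fallen, and the calls of Aars, Cars, Gars, Mars, Tars and Yars held. Levels of Tars were 179.9, 184 and 179 CPM in vehicle replicates 1, 2 and 3 and 143, 133 and 132 CPM in rapamycin replicates 1, 2 and 3. Tars, for threonine, had a log2 fold change of -0.41 ± 0.07 (SE), adjusted p = 0.000179. Gars, for glycine, stood at 255, 257 and 231 CPM and 188, 187 and 187 CPM (log2 -0.40 ± 0.07, adjusted p = 0.000213), and its 3 treated libraries agreed closely. Yars, for tyrosine (log2 -0.46 ± 0.07, adjusted p = 6.32e-05), and Aars, for alanine (log2 -0.39 ± 0.07, adjusted p = 0.00094), changed by like amounts. Nars, for asparagine, was outside the list because its newer symbol did not match, and was looked up after its values were seen: it fell from 417, 445 and 418 CPM to 315, 315 and 307 CPM (log2 -0.45 ± 0.07, adjusted p = 2.97e-05). Dars, Qars and Vars, at 0.01, -0.04 and -0.08 on the log2 scale, did not pass.

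Amino acid transporters did not move as one. Of 16 tested, 2 fell and 1 rose. Slc7a5, the light chain of the leucine transporter LAT1, went from 180.4, 176 and 194 CPM to 135, 123 and 134 CPM (log2 -0.49 ± 0.08, adjusted p = 0.000122), and its heavy chain Slc3a2 stood at 151, 169.8 and 157 CPM and 146, 149 and 151 CPM without passing (log2 -0.10). Slc7a1, a transporter of arginine and lysine, fell (log2 -0.31 ± 0.08, adjusted p = 0.0168), a call lost without vehicle replicate 1 or 3 or without rapamycin replicate 1 or 2. The riser was Slc7a11, the cystine importer xCT, which both ATF4 and NRF2 are known to induce. Levels of Slc7a11 were 80.2, 81.8 and 65.2 CPM in vehicle replicates 1, 2 and 3 and 186, 129 and 129.9 CPM in rapamycin replicates 1, 2 and 3. Its log2 fold change was 0.97 ± 0.15 (SE), adjusted p = 0.00115, its groups did not overlap, and the call held. The import gene Slc7a11 and the synthesis gene Cth, both of cysteine supply, thus moved in opposite directions. Of the 14 tested redox genes listed with NRF2, 1 rose, the glutathione reductase gene Gsr (log2 0.28 ± 0.07, adjusted p = 0.0111), a call lost without rapamycin replicate 1 or 2 or vehicle replicate 2 or 3. The NRF2 targets Nqo1 (log2 -0.17) and Hmox1 (log2 -0.37) lay below 0 and did not pass.

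To show the sequence in front of these genes, promoter windows of 250 bases upstream of the start site were taken from RefSeq (build GRCm38.p6) and searched on both strands for the C/EBP-ATF response element (CARE), a composite site that ATF4 is known to bind with a C/EBP partner. The motif searched was TGATGNAAT, found for 0.91% of 27025 genes with windows of this length. A gene counts once, as holding a match if any of its windows does. Counts and shares of windows, here and below, are therefore counts and shares of genes. It was found in 2 of 8 windows of fallen tRNA synthetases (2 of 13 tested), in 1 of 6 of fallen stress response effectors (1 of 13 tested) and in none of 10 of fallen amino acid enzymes (1 of 13 tested). The shorter core TGATGNAA, contained in the first motif and chosen after the first search, was found in 3.91% of all windows, in 3 of 10 windows of fallen amino acid enzymes, in 3 of 8 of fallen synthetases, in 1 of 6 of fallen stress response effectors, and in 1 of the 2 windows of called transporters, that of the risen Slc7a11. Among all tested members, called or not, the core stood in 5 of 13 windows of amino acid enzymes, 3 of 13 of synthetases, 3 of 13 of stress response effectors and 2 of 13 of transporters. A match describes letters in a window and is no evidence of binding. The windows below are shown because their genes changed and they hold a match, read 5′ to 3′ toward the start site, with the match in capitals, which reads as the reverse complement of the motif where it lies on the other strand. They lie at chr7:126625471-126625720, minus strand (Nupr1), chr6:55037751-55038000, plus strand (Gars1, the newer symbol of Gars), chr8:111033592-111033841, plus strand (Aars1, the newer symbol of Aars), chr6:7693210-7693459, minus strand (Asns), chr2:119350992-119351241, plus strand (Chac1) and chr3:50443614-50443863, minus strand (Slc7a11). The matches begin 111, 31, 113, 23 and 193 bases before the start in the first 5, and Slc7a11 holds 2, at 66 and 47 bases. The start that RefSeq gives for Asns did not match a transcript start in the GENCODE annotation used.
Nupr1: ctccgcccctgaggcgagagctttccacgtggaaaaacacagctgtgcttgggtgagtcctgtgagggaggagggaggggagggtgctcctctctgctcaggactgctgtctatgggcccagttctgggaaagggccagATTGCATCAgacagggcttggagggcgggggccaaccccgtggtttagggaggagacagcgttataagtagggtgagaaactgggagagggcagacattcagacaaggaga
Gars1: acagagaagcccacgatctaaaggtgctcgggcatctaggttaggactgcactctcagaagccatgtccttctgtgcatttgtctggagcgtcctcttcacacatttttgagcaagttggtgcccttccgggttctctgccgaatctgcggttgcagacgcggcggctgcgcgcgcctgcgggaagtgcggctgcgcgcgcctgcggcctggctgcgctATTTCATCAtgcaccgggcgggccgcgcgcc
Aars1: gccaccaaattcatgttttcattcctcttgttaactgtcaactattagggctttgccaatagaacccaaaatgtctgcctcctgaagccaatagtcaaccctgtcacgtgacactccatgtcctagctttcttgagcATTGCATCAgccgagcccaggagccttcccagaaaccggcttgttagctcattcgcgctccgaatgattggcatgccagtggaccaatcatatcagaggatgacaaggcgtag
Asns: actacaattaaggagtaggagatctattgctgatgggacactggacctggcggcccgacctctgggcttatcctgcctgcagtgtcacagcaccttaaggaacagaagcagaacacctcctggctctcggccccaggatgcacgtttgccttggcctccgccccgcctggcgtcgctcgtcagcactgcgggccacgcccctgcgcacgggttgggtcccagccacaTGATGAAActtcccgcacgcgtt
Chac1: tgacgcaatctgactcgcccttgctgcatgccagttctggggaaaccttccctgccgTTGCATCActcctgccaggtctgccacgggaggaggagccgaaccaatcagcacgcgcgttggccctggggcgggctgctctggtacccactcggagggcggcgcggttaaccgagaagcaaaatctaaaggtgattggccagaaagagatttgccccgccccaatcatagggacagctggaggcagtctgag
Slc7a11: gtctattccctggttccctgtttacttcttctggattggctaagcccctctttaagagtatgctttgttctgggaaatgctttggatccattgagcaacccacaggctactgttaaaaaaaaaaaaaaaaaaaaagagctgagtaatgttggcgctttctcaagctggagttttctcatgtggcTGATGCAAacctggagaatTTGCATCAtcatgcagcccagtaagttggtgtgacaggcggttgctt

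The first 5 genes fell and Slc7a11 rose. The windows of Nupr1, Gars1 and Aars1 hold the longer motif, and those of Asns, Chac1 and Slc7a11 only its core.

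**Figure D2:**
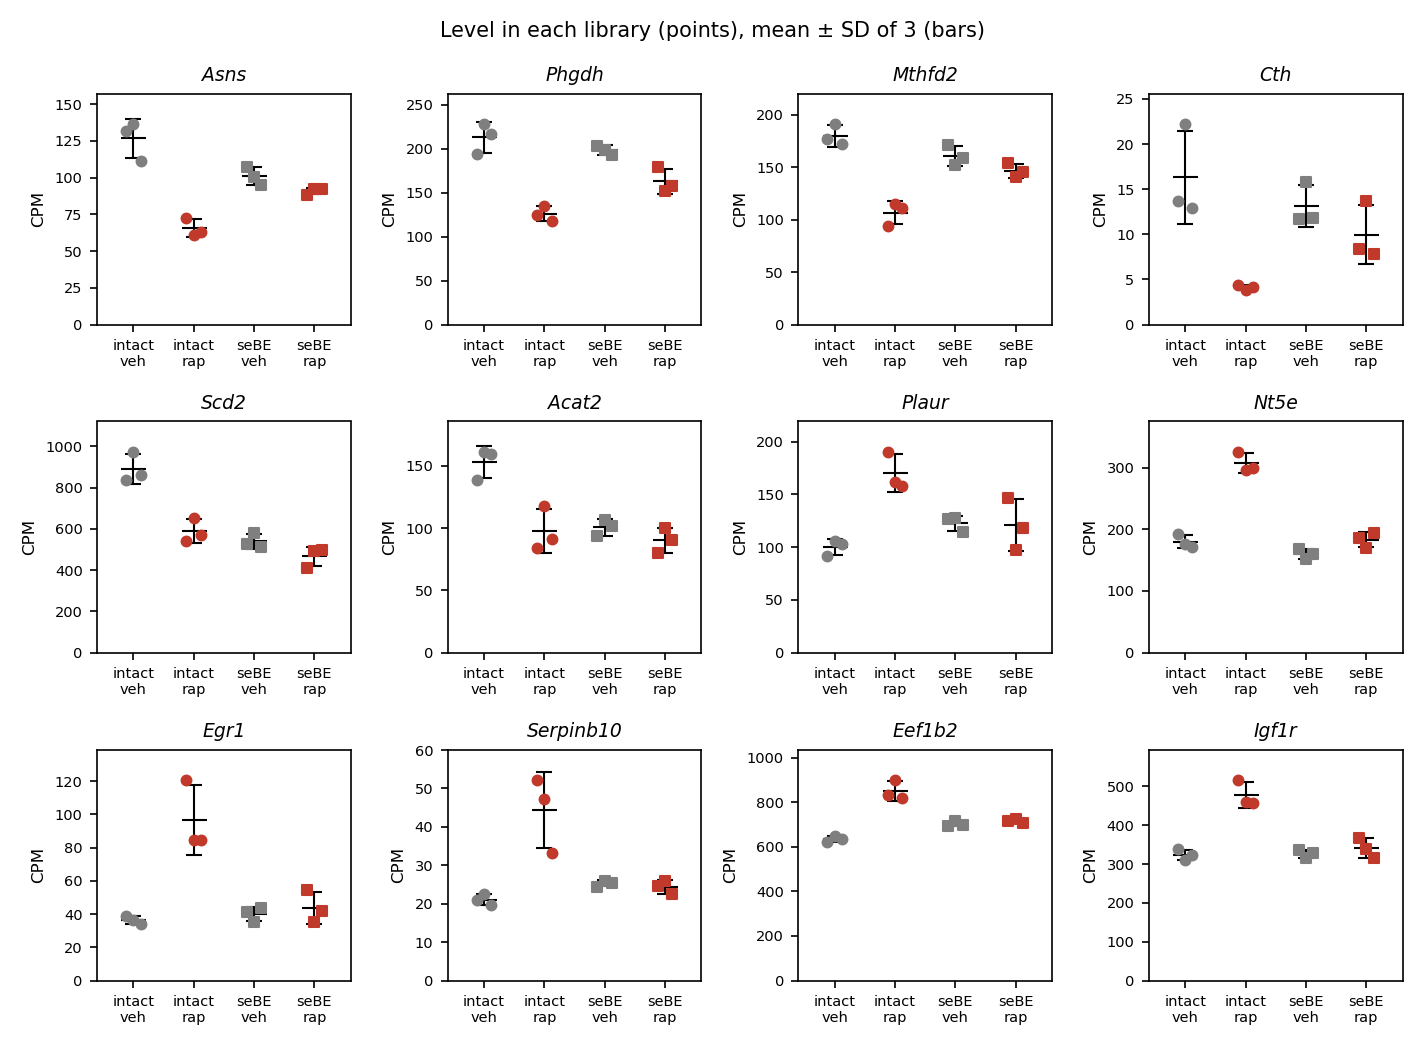
Levels in CPM (y, linear from 0) of 12 genes in each library of intact BE and seBE under vehicle (gray) and rapamycin (red); circles are intact BE, squares are seBE, and bars give the mean ± SD of 3 libraries. In intact BE no rapamycin library overlaps a vehicle library in any of the 12 genes, which were partly chosen for that and where 22.3% of all genes do the same, as with Asns (132, 137 and 111 against 72.3, 60.8 and 63.2 CPM), while in seBE the groups lie closer together.

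Some genes of lipid synthesis fell, and none rose. SREBP2 drives cholesterol synthesis and SREBP1 fatty acid synthesis. Of 29 tested cholesterol genes 7 fell and none rose (1.34% of all genes fell), 28 lay below 0, and the median was -0.24. The count was 1 without rapamycin replicate 1, 2 without vehicle replicate 2, 3 without vehicle replicate 3, 4 without rapamycin replicate 3 and 10 without rapamycin replicate 2, so only the call of Acat2 held. Acat2, encoding the acetyl-CoA acetyltransferase at the head of the pathway, stood at 139, 161 and 159.7 CPM and 84.3, 118 and 90.9 CPM (log2 fold change -0.65 ± 0.10 (SE), adjusted p = 2.97e-05). Mvd (log2 -0.62 ± 0.14, adjusted p = 0.00907), Lss (log2 -0.51 ± 0.10, adjusted p = 0.00329) and Hsd17b7 (log2 -0.43 ± 0.10, adjusted p = 0.0125), enzymes at later steps, fell in the full set and were lost without rapamycin replicate 1, Mvd also without vehicle replicate 2 or 3 or with the compared libraries alone, and Hsd17b7 without vehicle replicate 2. Srebf2 itself did not pass (log2 -0.04 ± 0.08, adjusted p = 0.899).

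Of 15 tested fatty acid genes 4 fell and none rose (1.34% of all genes fell), all 15 lay below 0 and the median was -0.23. Levels of Scd2 were 839, 975 and 861 CPM in vehicle replicates 1, 2 and 3 and 543, 653 and 571 CPM in rapamycin replicates 1, 2 and 3. Scd2 encodes a stearoyl-CoA desaturase, and its log2 fold change was -0.60 ± 0.08 (SE), adjusted p = 4.72e-06. Fads2, a desaturase of polyunsaturated fatty acids, went from 144, 187 and 165 CPM to 102, 116 and 109 CPM (log2 -0.60 ± 0.09, adjusted p = 2.88e-05). Both calls held. Acss2, which makes acetyl-CoA from acetate (log2 -0.99 ± 0.25, adjusted p = 0.0152), was lost without rapamycin replicate 1 or vehicle replicate 2, and Elovl6, which elongates fatty acids (log2 -0.42 ± 0.09, adjusted p = 0.00384), without rapamycin replicate 1, which left 2 fallen. Fasn (log2 -0.22), Acaca (log2 -0.23) and Srebf1 (log2 -0.31 ± 0.10, adjusted p = 0.0859) did not pass. The sterol response element searched as TCACNCCAC was in 1 of 21 windows of tested cholesterol genes, in none of 12 of fatty acid genes and in 1.22% of all windows, and in none of the windows of fallen genes of either list.

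Glycolysis, which HIF1 and mTORC1 promote, shifted little. Of 35 tested genes 4 fell, Pfkp, Tpi1, Gapdh and Ldha, and 1 rose, Ankrd37, and 28 of 35 lay below 0 with a median of -0.12. Ldha, lactate dehydrogenase A, stood at 985, 981 and 969.8 CPM and 865, 834 and 778 CPM (log2 fold change -0.24 ± 0.06 (SE), adjusted p = 0.0219). The groups did not overlap, yet the call was lost in 5 of the 6 leave-out fits, and no call of this list held: 1 or 2 genes fell in each of those fits. Pfkp, a phosphofructokinase subunit (log2 -0.31 ± 0.07, adjusted p = 0.00725), was lost only without rapamycin replicate 1. Hif1a did not pass (log2 -0.13 ± 0.08, adjusted p = 0.493). In nucleotide synthesis 2 of 21 fell, where 1.34% of all genes fell. They were Dhodh of the pyrimidine path (log2 -0.55 ± 0.12, adjusted p = 0.00675) and Mthfd1 of cytosolic folate metabolism (log2 -0.32 ± 0.08, adjusted p = 0.021). Both were lost without rapamycin replicate 1 or vehicle replicate 3, and Mthfd1 also without rapamycin replicate 3. Of 10 polyamine genes Srm, the spermidine synthase gene, fell from 123, 119 and 137 CPM to 95.1, 99.8 and 95.2 CPM (log2 -0.39 ± 0.08, adjusted p = 0.0026), and its call held.

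Ribosomal protein genes went the other way. Of 77 tested cytosolic ribosomal protein genes 27 rose and none fell (1.98% of all genes rose), 76 lay above 0, and the median was 0.22. The shift was even rather than large, between -0.03 and 0.40 for single genes. Per library the median was 0.191, 0.273 and 0.213 in rapamycin replicates 1, 2 and 3, and -0.029, 0.019 and 0.019 in the vehicle libraries. Of 45 genes of the large subunit 11 rose, and of 32 of the small subunit 16. Levels of Rpl4 were 2138, 2194 and 2194 CPM in vehicle replicates 1, 2 and 3 and 2662, 2782 and 2728 CPM in rapamycin replicates 1, 2 and 3. Its log2 fold change was 0.32 ± 0.06 (SE), adjusted p = 0.000865. Rps15a (log2 0.38 ± 0.07, adjusted p = 0.00151) and Rpl5 (log2 0.34 ± 0.07, adjusted p = 0.00146), which binds 5S rRNA, were close to it. In each of these 3 genes the treated libraries were above every control. Without vehicle replicate 2 or 3 the number that rose was 10, without rapamycin replicate 3 it was 13, and without rapamycin replicate 1 or 2 it was 14, and 7 calls held. The slope of log2 level on log2 transcript length, relative to the mean over 18 libraries, was 0.0322 to 0.057 in the rapamycin libraries and 0.024 to 0.0529 in the vehicle libraries. With that trend removed the median was 0.242 and 37 rose. These genes have many processed copies in the genome, and how the authors counted shared reads is unknown here.

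Translation factors went both ways. Of 35 tested, 7 rose and 1 fell, with a median of -0.03. The 3 that rose among elongation factors are known for the terminal oligopyrimidine start that marks mRNAs whose translation mTORC1 controls. Eef1b2 went from 619.9, 648 and 636 CPM to 831, 901 and 820.0 CPM (log2 0.42 ± 0.07, adjusted p = 6.32e-05), Eef2 from 2056, 2146 and 2251 CPM to 2779.5, 2794 and 2788 CPM (log2 0.37 ± 0.07, adjusted p = 0.0018), and Eef1a1 from 7305, 7226 and 7279 CPM to 9112, 9214 and 8972 CPM (log2 0.32 ± 0.07, adjusted p = 0.00305). Tpt1, which encodes the translationally controlled tumor protein, rose likewise (log2 0.36 ± 0.07, adjusted p = 0.0013), as did the initiation genes Eif3f, Eif3e and Eif4b by 0.33, 0.33 and 0.27. The calls of Eef1a1, Eef1b2, Eef2, Eif3f and Tpt1 held, that of Eif3e was lost without rapamycin replicate 1 or vehicle replicate 2, and that of Eif4b in all 6 leave-out fits. The cap-binding gene Eif4e (log2 -0.09), the helicase gene Eif4a1 (log2 -0.12) and the scaffold gene Eif4g1 (log2 -0.14) did not pass, and Eif2s2 fell by 0.32. Its call was lost without rapamycin replicate 1, vehicle replicate 1 or vehicle replicate 2.

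Of 42 tested genes of MYC and of ribosome assembly 2 rose and none fell, where 3.32% of all genes passed, and the median was -0.06. Mxd4, encoding a MAX partner that opposes MYC, went from 41.6, 41.8 and 51.3 CPM to 70.3, 67.2 and 72.6 CPM (log2 0.64 ± 0.10, adjusted p = 0.000107), and Myc from 179.7, 195 and 194 CPM to 222, 228 and 231 CPM (log2 0.26 ± 0.07, adjusted p = 0.0174). The call of Mxd4 held, while that of Myc was lost without any of vehicle replicates 1, 2 or 3 or rapamycin replicates 2 or 3. Of 29 genes of rRNA processing and assembly 25 lay below 0, with a median of -0.08 and none past the threshold.

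**Figure D3:**
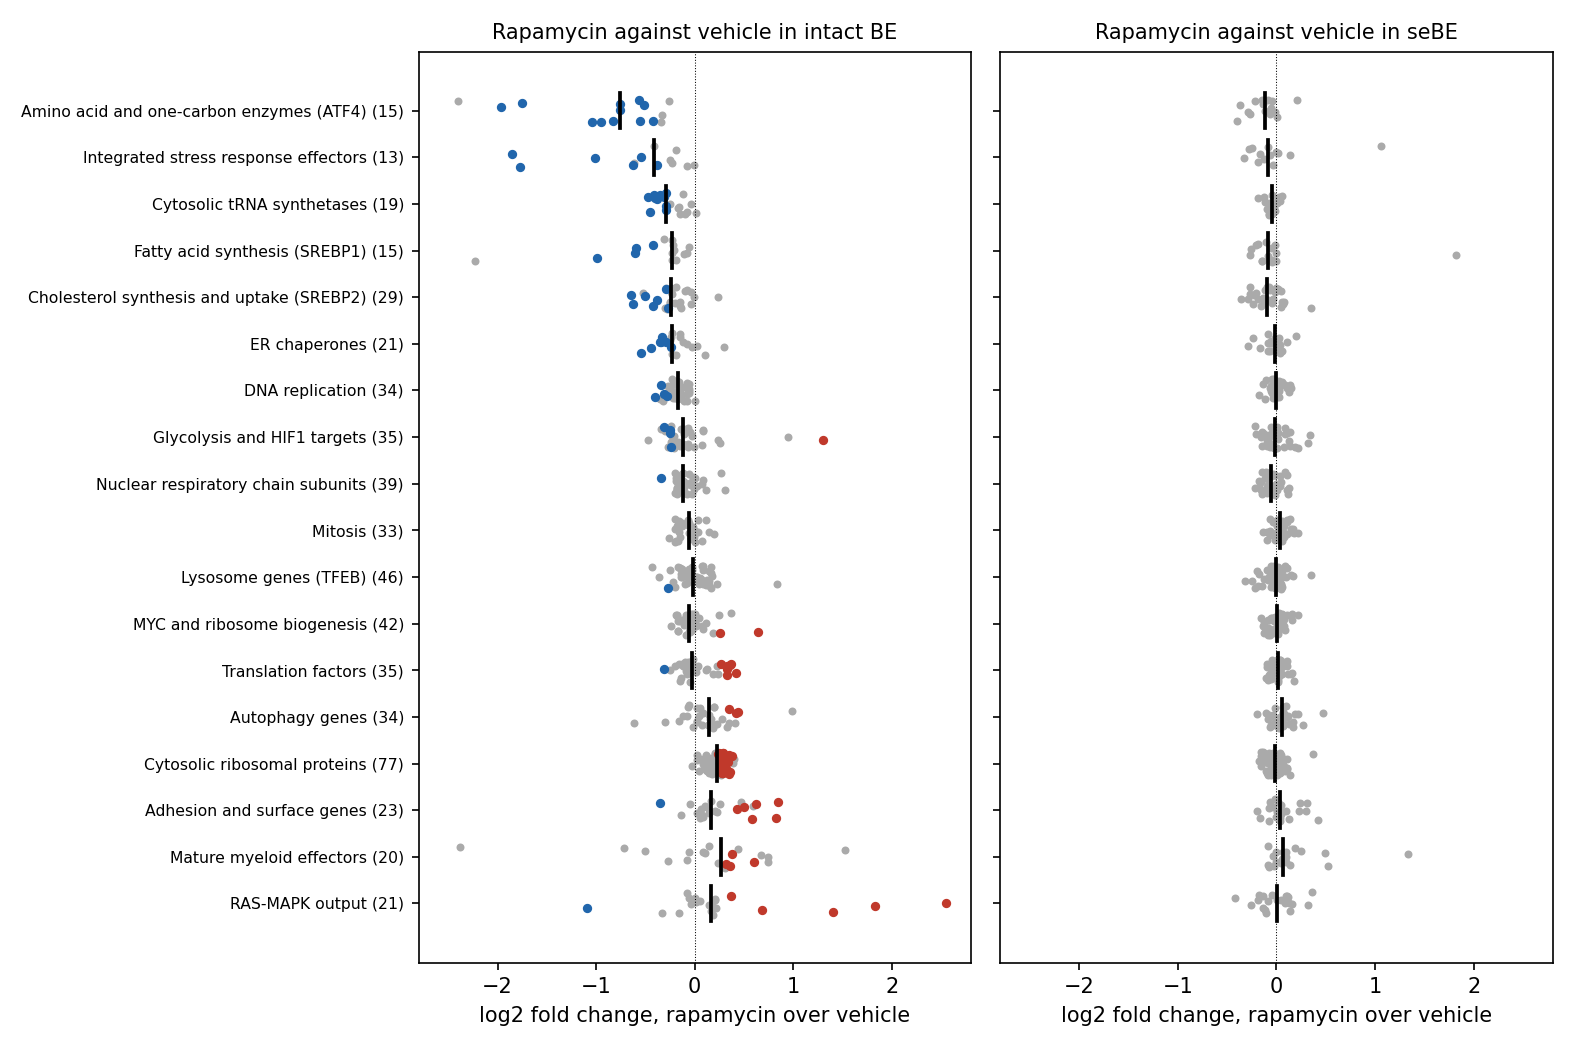
Log2 fold changes, rapamycin over vehicle (x), of the tested members of 18 gene lists (rows, with the number tested), in intact BE (left) and seBE (right); red and blue points passed an adjusted p under 0.05, gray ones did not, and black bars are medians. In intact BE the medians run from -0.75 for the amino acid enzymes to 0.27 for mature myeloid effectors, with ribosomal proteins at 0.22, and in seBE no member passed.

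Chaperones of the endoplasmic reticulum, which fold secreted proteins, fell in part. Of 21 tested 8 fell and none rose (1.34% of all genes fell), and the median was -0.23. Levels of Hspa5 were 1339.6, 1289 and 1263 CPM in vehicle replicates 1, 2 and 3 and 1006, 996 and 1058 CPM in rapamycin replicates 1, 2 and 3. Hspa5, the master chaperone BiP, had a log2 fold change of -0.35 ± 0.07 (SE), adjusted p = 0.00241. Sdf2l1 (log2 -0.54 ± 0.09, adjusted p = 0.000171) and Hyou1 (log2 -0.35 ± 0.07, adjusted p = 0.00372) fell too, and these 3 calls held, while the number fallen ranged from 3 without vehicle replicate 2 to 6 without rapamycin replicate 2 or vehicle replicate 3. It was 4 without rapamycin replicate 1 and 5 without rapamycin replicate 3 or vehicle replicate 1. The sensors Atf6 (log2 -0.08) and Ern1 (log2 0.02) and the factor Xbp1 (log2 -0.02) did not pass. All 14 tested heat shock chaperone genes lay below 0 with a median of -0.19, but none passed, among them Hspa8 (log2 -0.13 ± 0.07, adjusted p = 0.37). Of 32 proteasome subunit genes 30 lay below 0 with a median of -0.14, and Psmd3 passed (log2 -0.35 ± 0.09, adjusted p = 0.0178), though not without rapamycin replicate 1 or vehicle replicate 2 or 3.

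Of 46 tested lysosomal genes, many of them TFEB targets, none rose and 1 fell, Ctsz, a share near that of all genes, and the median was -0.02. Tfeb was scarce and did not pass (log2 -0.37 ± 0.21, adjusted p = 0.464). The TFEB site searched as TCACGTGA stood in 6 of 35 windows of tested lysosomal genes and in 0.907% of all windows. Ctsz (log2 -0.27 ± 0.08, adjusted p = 0.0489) was lost in 9 of 17 alternatives, among them without rapamycin replicate 1 or 3 or vehicle replicate 2 or 3, with RLE scaling, with the filter of 1 CPM and with the length trend removed. Autophagy genes had a median of 0.14, with 26 of 34 above 0 and 3 risen. Bnip3l, a receptor for autophagy of mitochondria, went from 98.4, 88.6 and 84.4 CPM to 131, 113 and 124 CPM (log2 0.44 ± 0.09, adjusted p = 0.00223). Nbr1, a cargo receptor (log2 0.35 ± 0.08, adjusted p = 0.00832), was lost without rapamycin replicate 1 or vehicle replicate 2, and Ulk1, the kinase that mTORC1 inhibits (log2 0.42 ± 0.12, adjusted p = 0.0482), passed only without rapamycin replicate 2 among those fits. Map1lc3a had a large value (log2 0.98) that did not pass.

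Of the listed genes of the respiratory chain 1 passed. Of 13 mitochondrially encoded genes none passed, 11 lay above 0 and the median was 0.19. Mitochondrially encoded counts made 2.02%, 1.84% and 1.78% of vehicle replicates 1, 2 and 3, and 2.25%, 2.08% and 1.99% of rapamycin replicates 1, 2 and 3. The ranges of the groups overlap. Each rapamycin library was above the vehicle library of its own number, but the labels do not say whether the numbers pair the libraries. In seBE the shares were 2.66%, 4.1% and 2.8% under vehicle and 2.99%, 4.61% and 3.15% under rapamycin, in the same order. The one with the highest CPM, mt-Co1, did not pass (log2 0.23 ± 0.21, adjusted p = 0.717). Of 39 nuclear subunit genes 33 lay below 0, the median was -0.11, and 1, Uqcrq of complex III, fell (log2 -0.34 ± 0.10, adjusted p = 0.0376). Its call was lost without any of rapamycin replicates 1, 2 or 3 or vehicle replicates 2 or 3. Called genes linked to the chain also stood outside these lists. Cox7a2l rose (log2 0.61 ± 0.08, adjusted p = 4.2e-06), and its call held. Atp5g1 and Atp5g3 passed in the full set and each in 4 of the 6 leave-out fits. Cyc1 of complex III is given at the end.

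Of the listed genes of DNA replication 4 fell, and none of the listed genes of mitosis passed. Of 34 tested replication genes 33 lay below 0, with a median of -0.17. Rrm2 and Rrm1 encode the subunits of ribonucleotide reductase, which makes DNA precursors. Levels of Rrm2 were 420.5, 404 and 414 CPM in vehicle replicates 1, 2 and 3 and 319.8, 321 and 337 CPM in rapamycin replicates 1, 2 and 3. The log2 fold change of Rrm2 was -0.34 ± 0.07 (SE), adjusted p = 0.0043, and its call alone of the 4 held. Rrm1 (log2 -0.28 ± 0.07, adjusted p = 0.0251), the polymerase subunit gene Pold2 (log2 -0.40 ± 0.10, adjusted p = 0.0235) and the licensing inhibitor gene Gmnn (log2 -0.31 ± 0.09, adjusted p = 0.0303) were lost in most leave-out fits, so that 1 replication gene fell without rapamycin replicate 1 or vehicle replicate 2 or 3. Of 33 mitosis genes 25 lay below 0, with a median of -0.06, and the proliferation marker Mki67 stood at 859, 784 and 741 CPM and 746, 747 and 836 CPM (log2 -0.03 ± 0.08, adjusted p = 0.922). The G1 cyclins Ccnd1 (log2 0.13 ± 0.10, adjusted p = 0.637), Ccnd2 (log2 0.08 ± 0.08, adjusted p = 0.717) and Ccnd3 (log2 -0.02 ± 0.07, adjusted p = 0.941), often tied to mTORC1, did not pass, nor did the inhibitors Cdkn1a (log2 0.04 ± 0.08, adjusted p = 0.908) and Cdkn1b (log2 0.19 ± 0.09, adjusted p = 0.303). Cdk6 was the 1 riser of 23 G1 genes (log2 0.26 ± 0.07, adjusted p = 0.0181), lost without rapamycin replicate 1 or 3 or vehicle replicate 2 or 3. No gene passed among 22 p53 targets, 22 interferon-stimulated genes, 18 NF-kB genes, 33 DNA repair genes and 12 BCL2 family genes, with medians of -0.10, -0.02, 0.11, -0.03 and 0.10.

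Early growth response genes were among the largest rises. EGR factors are zinc finger transcription factors that growth factor and MAP kinase signals induce within minutes. Levels of Egr1 were 38.8, 36.3 and 34.3 CPM in vehicle replicates 1, 2 and 3 and 121, 84.5 and 84.3 CPM in rapamycin replicates 1, 2 and 3. Egr1 rose in all 3 treated libraries (log2 fold change 1.41 ± 0.13 (SE), adjusted p = 5.74e-08), most in replicate 1. Egr3 went from 2.55, 1.82 and 1.88 CPM to 18.8, 9.73 and 8.19 CPM (log2 2.55 ± 0.33, adjusted p = 4e-06), again highest in replicate 1, the largest rise among named genes. Egr2 was scarce, at 0.851, 1.28 and 0.964 CPM and 3.6, 4.43 and 2.97 CPM (log2 1.83 ± 0.49, adjusted p = 0.0264), and its groups did not overlap either. Nab2, which encodes a corepressor of EGR factors and was singled out after its values were seen, rose from 31.6, 33.7 and 33.3 CPM to 51.4, 56.6 and 44.1 CPM (log2 0.62 ± 0.11, adjusted p = 0.000206). Of 21 tested genes of RAS-MAPK output 5 rose and 1 fell, with a median of 0.17, where 1.98% of all genes rose and 1.34% fell. The other risers were the feedback phosphatase genes Dusp5, at 21, 22.6 and 22.8 CPM and 40.5, 34.5 and 32 CPM (log2 0.69 ± 0.13, adjusted p = 0.000935), and Dusp6 (log2 0.36 ± 0.08, adjusted p = 0.00884). The calls of Egr1, Egr3 and Dusp5 held, and 3 genes of the list rose without rapamycin replicate 1 or vehicle replicate 2 or 3. Egr2 passed only without rapamycin replicate 3 among these fits, and Dusp6 was lost without rapamycin replicate 1 or vehicle replicate 2 or 3. Other immediate early genes did not follow: Fos (log2 0.18), Junb (log2 0.20) and Ier2 (log2 0.22) did not pass, nor did the feedback genes Spry2 (log2 0.01) and Spry4 (log2 -0.33). Jun, scarce at 6.24, 6.21 and 8.89 CPM and 4.3, 3.57 and 2.15 CPM, fell (log2 -1.09 ± 0.30, adjusted p = 0.0329), a call lost when any library but rapamycin replicate 1 was left out.

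Genes of the insulin and PI3K path gave 4 risers and 1 faller of 31 tested, with a median of 0.05. Of all genes 1.98% rose and 1.34% fell. Igf1r, the receptor of insulin-like growth factor 1, rose from 338, 311 and 323 CPM to 517, 459 and 458 CPM (log2 fold change 0.56 ± 0.07 (SE), adjusted p = 2.28e-06). Ccng2, encoding cyclin G2 and a known FOXO target, went from 38.7, 33.9 and 37.2 CPM to 61.8, 50.5 and 55.5 CPM (log2 0.61 ± 0.12, adjusted p = 0.00209). Both calls held. The FOXO-linked genes Klf2 (log2 0.30), Txnip (log2 0.26), Irs2 (log2 0.28) and Sesn3 (log2 -0.56) did not pass. Phlpp2, a phosphatase gene that opposes AKT, fell (log2 -0.48 ± 0.11, adjusted p = 0.0113), which did not hold without rapamycin replicate 1 or vehicle replicate 3. Pik3cg, a PI3K catalytic subunit gene of leukocytes, rose by 0.33 on the log2 scale, a call lost without rapamycin replicate 1 or 3 or vehicle replicate 2 or 3.

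Adhesion and surface genes of myeloid cells rose in part. Of 23 tested 6 rose and 1 fell, where 1.98% of all genes rose and 1.34% fell, and the median was 0.17. Itgam, the CD11b integrin chain of myeloid cells, went from 130.5, 143 and 131 CPM to 223, 193 and 186 CPM (log2 0.58 ± 0.08, adjusted p = 1.05e-05). Itgb3, the integrin beta 3 chain, went from 45.4, 53.2 and 46.1 CPM to 91.6, 80.5 and 83.3 CPM (log2 0.82 ± 0.11, adjusted p = 4.72e-06), and Cd9, a tetraspanin, from 43.2, 43.1 and 38.8 CPM to 64.4, 69.2 and 59.4 CPM (log2 0.63 ± 0.11, adjusted p = 0.000197). Their groups stayed apart, and the calls of Itgam, Itgb3, Cd9 and Itga1 held. Of 20 tested mature myeloid effectors 4 rose and none fell, all 4 held, and the median was 0.27. Among them were Cd14, the lipopolysaccharide co-receptor gene, at 37.2, 41.3 and 37.9 CPM and 65.5, 53.9 and 56.5 CPM (log2 0.60 ± 0.12, adjusted p = 0.00242), and the Fc receptor genes Fcgr2b (log2 0.38 ± 0.08, adjusted p = 0.00194) and Fcgr3 (log2 0.32 ± 0.07, adjusted p = 0.00746). S100a8, S100a9 and Camp had values of 0.68, 0.74 and 0.74 on the log2 scale and did not pass. Of the 20 effectors 14 lay above 0 and 6 below, in a range from -2.38 to 1.53.

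Earlier myeloid genes went both ways. Of 20 factors and primary granule genes 2 rose and 3 fell. Levels of Lyz2 were 430.0, 437 and 430.5 CPM in vehicle replicates 1, 2 and 3 and 668, 666 and 587 CPM in rapamycin replicates 1, 2 and 3. Lyz2, the myeloid lysozyme, had a log2 fold change of 0.57 ± 0.08 (SE), adjusted p = 3.31e-05. Irf8, a factor of monocyte and dendritic fate, fell from 83.5, 85 and 87.2 CPM to 51.9, 59.2 and 54.5 CPM (log2 -0.63 ± 0.09, adjusted p = 1.88e-05). Both calls held. The granule protease gene Ctsg fell (log2 -0.32 ± 0.07, adjusted p = 0.00615), which was lost without rapamycin replicate 1, and Elane and Mpo, at -0.26 and -0.31, did not pass. Among receptors, Ccr1 rose from 50.7, 44.4 and 36.2 CPM to 89.1, 63.3 and 63.4 CPM (log2 0.72 ± 0.12, adjusted p = 0.000232), and the common beta chains Csf2rb (log2 0.34 ± 0.07, adjusted p = 0.0043) and Csf2rb2 (log2 0.41 ± 0.09, adjusted p = 0.00605), near copies of each other between which reads may be shared, rose as well. Their calls were lost without rapamycin replicate 1 (Csf2rb) and without vehicle replicate 2 or 3 (Csf2rb2). Of 21 tested genes of the leukemia program 3 rose and none fell, where 1.98% of all genes rose. The list's median was 0.02, with 12 genes above 0 and 9 below. The risers were Kit (log2 0.31 ± 0.08, adjusted p = 0.0176), Runx2 (log2 0.26 ± 0.07, adjusted p = 0.0295) and Cdk6. None of the 3 passed without rapamycin replicate 1 or 3 or vehicle replicate 2 or 3. Hoxa9 (log2 -0.17) and Meis1 (log2 0.04) did not pass.

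Gata2, a factor of stem, mast and megakaryocytic cells, rose from 74.6, 88.6 and 89.4 CPM to 119.8, 128 and 129 CPM (log2 0.58 ± 0.09, adjusted p = 3.28e-05). The mast cell protease genes beside it, Cpa3 (log2 0.31) and Mcpt8 (log2 0.27), did not pass, and neither did the IgE receptor subunit gene Ms4a2 (log2 -0.29). Whether a change in the share of such cells took part was not tested. Alas1, the first enzyme of heme synthesis, rose from 309, 316 and 335 CPM to 431, 440.4 and 408 CPM (log2 0.41 ± 0.07, adjusted p = 0.000192). Of 15 heme and iron genes 2 rose and 2 fell, where 1.98% of all genes rose and 1.34% fell. Of these calls that of Alas1 held.

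Further genes with the largest changes belonged to no list. Among those that rose, Serpinb2, the inhibitor of plasminogen activators, went from 5.44, 6.48 and 3.27 CPM to 31.8, 18.2 and 11 CPM (log2 2.01 ± 0.40, adjusted p = 0.0078), with a wide spread among treated libraries, and its call was lost without vehicle replicate 3 and with the compared libraries alone. Plaur, the receptor of the urokinase plasminogen activator, went from 91.7, 106 and 103 CPM to 190.5, 161 and 158 CPM (log2 0.76 ± 0.10, adjusted p = 4.2e-06). Adam8, a membrane metalloprotease of leukocytes, rose from a tight control group. Levels of Adam8 were 170.2, 174 and 176 CPM in vehicle replicates 1, 2 and 3 and 418, 369.5 and 292 CPM in rapamycin replicates 1, 2 and 3. Its log2 fold change was 1.05 ± 0.14 (SE), adjusted p = 0.000197. Nt5e, the ectonucleotidase CD73 that makes adenosine, went from 192, 176 and 172 CPM to 326, 296 and 300.0 CPM (log2 0.77 ± 0.07, adjusted p = 8.36e-09). Serpinb10 (log2 1.07 ± 0.14, adjusted p = 3.63e-06), the receptor gene Cd200r3 (log2 1.35 ± 0.18, adjusted p = 4.55e-06), Anxa5, encoding annexin A5 (log2 0.64 ± 0.08, adjusted p = 1.99e-06), and Hao1, encoding hydroxyacid oxidase 1 (log2 0.66 ± 0.08, adjusted p = 4.89e-07), rose with calls that held. Hcar2, the niacin receptor gene, Ikzf2, encoding Helios, Klra2 and Peli2, each under 25 CPM, had log2 fold changes of 1.61, 1.24, 1.20 and 1.10 that held. Gem, Ptprn, Slc12a5, Tgm2 and the clone-named CR974462.1, with log2 fold changes of 1.28, 1.09, 1.06, 1.01 and 1.01, each lost the call in 2 or more of the 6 leave-out fits.

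Among those that fell, Ighm, the immunoglobulin mu heavy chain gene, went from 31.6, 30.8 and 35.6 CPM to 17.8, 12.7 and 13.7 CPM (log2 -1.14 ± 0.15, adjusted p = 5.81e-06). The B cell markers Ms4a1 and Pax5 had 0 counts in all 6 libraries. Scpep1, a serine carboxypeptidase gene, went from 43.4, 51.3 and 48.1 CPM to 23.1, 26.9 and 22.9 CPM (log2 -0.97 ± 0.11, adjusted p = 7.93e-07), and Chdh, the mitochondrial choline dehydrogenase, from 47, 53.3 and 54.2 CPM to 28.6, 32.4 and 27.2 CPM (log2 -0.81 ± 0.11, adjusted p = 4.24e-06). Cgnl1, encoding a junction protein (log2 -1.0 ± 0.15, adjusted p = 7.31e-05), and P2rx3, an ATP-gated channel gene (log2 -1.26 ± 0.25, adjusted p = 0.00377), fell with calls that held. Bhlha15, Them6, B3gnt5 and Dse had log2 fold changes of -1.38, -1.22, -1.08 and -1.01, and each lost the call in at least 1 of the leave-out fits, B3gnt5 only without rapamycin replicate 1.

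The same dose of rapamycin for the same time gave no call in seBE. The test called 0 of 14985 genes (0%), with 493 at an unadjusted p under 0.05, where intact BE had 2153, and DESeq2 called 1. Groups that did not overlap made 8.06% of genes in seBE and 22.3% in intact BE. Counts of rapamycin replicates differed more in seBE. Between 2 libraries the chi-square per degree of freedom was 17.2, 30.7 and 28.5 there, against 9.96, 11.9 and 10.9 in intact BE. Their log2 levels correlated alike, with a Pearson r of 0.9687 to 0.9778 and 0.9678 to 0.9748. Whether this spread took part in the lack of calls was not tested. The 2 comparisons share no library. Of the 497 genes called in intact BE, 400 (80.5%) had the same sign in seBE, against 55.9% of all tested genes, and 57 had an unadjusted p under 0.05 there. The 296 risen genes had a median log2 fold change of 0.414 in intact BE and 0.071 in seBE, and the 201 fallen genes -0.437 and -0.078. All 497 were smaller in size in seBE. They had been chosen for their values in intact BE, so this count is no test. Over the 497 genes the log2 fold changes of the 2 editors had a Pearson r of 0.378 and a Spearman rho of 0.575, and over all tested genes 0.0114 and 0.111. Within the 296 risen genes the values were 0.502 and 0.235, and within the 201 fallen ones -0.418 and 0.152. Yet 160 of those 201 had the same sign in seBE. Pearson r depends on extreme values, and 3 called genes lay outside 3 on the log2 scale in intact BE. Likewise 3 called genes had a mean under 1 CPM. Whether such genes set the negative r was not tested. The correlations describe genes, which are not independent.

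Values in seBE lay in the direction of intact BE for several leading genes. Phgdh stood at 203, 199 and 192 CPM under vehicle and 179, 152 and 157 CPM under rapamycin in seBE, a log2 fold change of -0.28 (95% interval -0.45 to -0.12) with an unadjusted p of 0.00113 and an adjusted p of 0.999. Fads2 had -0.26 (95% interval -0.44 to -0.08) and Itgb3 0.31 (95% interval 0.08 to 0.53). Those intervals, not adjusted for the number of genes, lie on 1 side of 0, and no such gene passed. For Asns the value in seBE was -0.15 (95% interval -0.33 to 0.03), and for Eef1b2 0.03 (95% interval -0.10 to 0.16), so that 0 lies within both. Medians of the lists in seBE were -0.11 for amino acid enzymes, -0.09 for cholesterol genes, -0.02 for ribosomal proteins and 0.00 for RAS-MAPK output. For some lists the median in seBE was about as large as in intact BE, at 0.175 and 0.188 for mitochondrially encoded genes, 0.064 and 0.054 for insulin, PI3K and FOXO genes, and -0.04 and -0.032 for mTOR genes, with no member called in seBE. In seBE under vehicle Scd2 and Acat2 stood at 528, 582 and 512 CPM and 93.5, 107 and 102 CPM, all under the lowest vehicle library of intact BE, a difference that was not tested here.

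**Figure D4:**
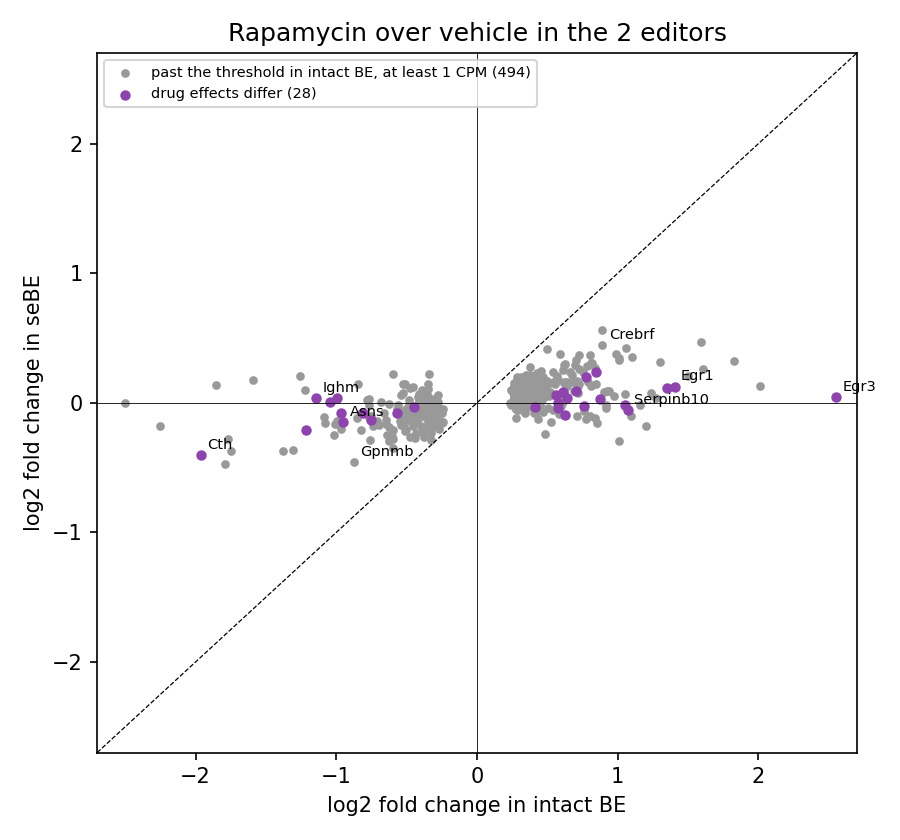
Log2 fold changes, rapamycin over vehicle, in intact BE (x) and in seBE (y) for the 494 genes called in intact BE with a mean of at least 1 CPM; purple points are the 28 genes whose drug effects differed at an adjusted p under 0.05, and the dashed line marks equal effects. All points lie nearer the horizontal axis than the dashed line of equal effects would put them, with Egr3 at 2.55 in intact BE and 0.04 in seBE.

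The difference between the 2 drug effects was tested itself, as an interaction in the same fit. It passed in 28 of 14985 genes (0.187%), with 1044 at an unadjusted p under 0.05. In 17 of them (0.113%) the effect in seBE was lower, and all 17 had risen in intact BE. In 11 (0.0734%) it was higher, and all 11 had fallen in intact BE. Every one of the 28 had the larger effect in intact BE, where all 28 were also called, so this count is no test. Of all 14985 tested genes 8991 were smaller in size in seBE. For some of them the vehicle levels of the editors were already apart. Vehicle means in intact BE and seBE were 47.6 and 29.6 CPM for Scpep1 and 173 and 248 CPM for Adam8. For others they were close, at 36.5 and 39.9 CPM for Egr1 and 324 and 326 CPM for Igf1r. Whether the vehicle level took part in the differences was not tested. Egr1 had the difference with the lowest adjusted p together with Asns: 1.41 in intact BE, 0.13 (95% interval -0.15 to 0.40) in seBE, and a difference of -1.28 ± 0.19 (SE), adjusted p = 0.00176. In seBE its libraries overlapped, at 41.4, 35.1 and 43.4 CPM under vehicle and 54.3, 35 and 41.5 CPM under rapamycin. The difference was 0.80 ± 0.13 (SE), adjusted p = 0.00176, for Asns, 0.62 ± 0.11 (SE), adjusted p = 0.00608, for Mthfd2, and 1.18 ± 0.21 (SE), adjusted p = 0.00564, for Ighm. Of the 15 amino acid enzymes 5 passed, namely Cth, Gpt2, Asns, Mthfd2 and Shmt2. No ribosomal protein, translation factor, cholesterol, fatty acid or endoplasmic reticulum chaperone gene passed, so a difference between the editors was not shown for those genes. The number of genes was 11 without rapamycin replicate 1 of intact BE, 13 without its vehicle replicate 3, 15 without its vehicle replicate 2, 17 without vehicle replicate 1 of seBE and 54 without rapamycin replicate 1 of seBE. Egr1, Serpinb10, Ighm, Asns, Nt5e, Scpep1 and Plaur passed in all 22 alternatives, and Mthfd2 in all but the fit without rapamycin replicate 1 of intact BE, where the adjusted p was 0.0592.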

How the data were processed

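Poly(A) RNA from sorted cells was sequenced with a directional protocol, per the labels' protocols. The authors deposited 1 table of raw read counts per gene for 18 libraries. Reads were processed with fastp 1.0.1, STAR 2.7.1a, SAMtools 1.9 and featureCounts (Subread 2.0.3) on GRCm39, and DESeq2 is also named, per the submitters' processing notes. For the annotation, the strand setting and reads with several matches the entry is "not given in the sources used here", so overlapping genes, antisense pairs and near-identical copies cannot be told apart. Of 56748 gene identifiers 4675 had no symbol and held 2.36% of counts.

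From the deposited counts, genes were filtered with filterByExpr, which left 14985 genes holding 99.93% of counts. Libraries were scaled by TMM and all 18 were fitted with 6 group means in edgeR 4.0.16 (R 4.3.3, limma 3.58.1) by the robust quasi-likelihood test, with 12 residual degrees of freedom and Benjamini-Hochberg adjustment at 0.05. A fold change is log2 of rapamycin over vehicle, with an SE taken from the F statistic (fold change over root F, as a size). The biological coefficient of variation was 13.3%. In simulated data on 14985 genes for intact BE, 12% of genes changed by 1.25-fold, 44% by 1.5-fold, 74% by 2-fold and 78% by 4-fold were called, with 50 genes at each fold and 9 false calls. No 2 libraries of a group agreed within sampling noise.

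Named genes were the 15 largest rises and falls past the threshold with at least 5 CPM and groups that did not overlap, up to 4 called members per list (where none passed, the most abundant member), 17 fixed pathway genes, the 5 genes of lowest adjusted p in each direction and up to 5 in each direction for the difference between editors. Other genes given with values, most of them list members that did not pass, were chosen after their values were seen. The comparison and the 43 gene lists were chosen with earlier results of these data known. Of 1015 list symbols 991 matched by symbol, 20 by an older symbol and 4 not, and 951 were tested. Alternatives were DESeq2 1.42.0, RLE scaling, omission of the filter, a minimum of 1 CPM in 3 libraries, the compared libraries alone, a replicate block, removal of a length trend, and leaving out each library. A further 3 were chosen after seeing the data: thinning to equal depth, rapamycin replicate 2 as the only rapamycin library, and 3 libraries of other groups left out. Some genes that the rule names or the counts include are not reported here.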

Additional observations from a re-analysis of the deposited data

Results flagged for a closer look

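The effect of rapamycin differed between the 2 editors in 28 genes, by the test of the difference itself (edgeR's quasi-likelihood test, adjusted p under 0.05). Values below are the log2 fold change in seBE minus that in intact BE. Each of the 28 had the larger effect in intact BE, where all were also called, so that count is no test. In 10 the sign in seBE was opposite, while 55.9% of all tested genes had the same sign in both editors. Tmem71, Nab2, Tec, Cox7a2l and Nars fell outside the rule for named genes and were chosen after their values were seen.

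Of genes that rose in intact BE, the transcription factor genes gave -2.51 for Egr3, -1.28 for Egr1 and -0.62 for Gata2, and the EGR corepressor gene gave -0.72 for Nab2. Surface and secreted proteins of leukocytes gave -1.24 for Cd200r3, -1.07 for Adam8, -0.79 for Plaur, -0.58 for Itgam and -0.57 for Nt5e. The remaining ones were -1.13 for Serpinb10, -0.85 for Tmem71, -0.62 for Tec, a kinase gene, -0.61 for Anxa5, -0.53 for Cox7a2l, -0.50 for Igf1r and -0.45 for Alas1. Adjusted p ran from 0.00176 for Egr1 to 0.0335 for Alas1.

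Of genes that fell in intact BE, those of amino acid and one-carbon metabolism gave 1.56 for Cth, 1.05 for Gpt2, 1.01 for Bcat1, 0.80 for Asns, 0.62 for Mthfd2, 0.48 for Shmt2 and 0.42 for Nars. The others were 1.18 for Ighm, 1.03 for Cgnl1, 0.89 for Scpep1 and 0.73 for Chdh, which passed in 15 of 22 alternatives, with an adjusted p of up to 0.0972. Adjusted p ran from 0.00176 for Asns to 0.0484 for Gpt2.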

How the results depend on the processing

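For the drug effect in intact BE, against 497 genes, the count was 849 with the compared libraries alone and 67 with rapamycin replicate 2 as the only rapamycin library, and it ranged from 216 to 401 when 1 library was left out. It was 712 with DESeq2, 707 with the replicate block and 466 after thinning to equal depth. With only that rapamycin library, 0 ribosomal proteins, 0 cholesterol and 0 fatty acid genes, 1 stress response effector and 1 tRNA synthetase passed, and the lone library was assumed to vary like the other groups. For seBE, against 0 genes, DESeq2 gave 1, and leaving out 1 library gave 0 to 1. For the difference between editors, against 28 genes, DESeq2 gave 76, no filter 66, the replicate block 65 and the length trend removed with the replicate block 70, and leaving out 1 library gave 11 to 54. The cause of these changes was not tested. The replicate block rests on numbers only: same-numbered intact BE libraries had correlated deviations of 0.17, 0.145 and -0.0728 and those of seBE 0.116, 0.292 and 0.408, and not every library correlated best with its own number. Under the block 14 cholesterol, 9 fatty acid and 13 endoplasmic reticulum chaperone genes fell, 38 ribosomal proteins and 8 mature myeloid effectors rose, and 3 p53 targets, 1 NF-kB gene and 1 DNA repair gene passed.

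Among named genes 26 values changed sign, all of genes that did not pass. When 1 library was left out, log2 fold changes ranged from -0.04 to 0.01 for Mtor, -0.08 to 0.02 for Ccnd3, -0.09 to 0.03 for Mki67, -0.05 to 0.04 for Nfkb1, -0.24 to 0.91 for Klf1, -0.2 to 0.05 for Eif4ebp1, -0.09 to 0.02 for Srebf2 and -0.01 to 0.07 for Cdkn1a. Mtor was 0 with DESeq2, RLE scaling or the 1 CPM filter and 0.01 with the length trend removed, with or without the replicate block, where Ccnd3 was 0. With rapamycin replicate 2 alone, Mtor was 0.06, Ccnd3 0.02, Srebf2 0.04, Ccnd1 -0.04, Ccnd2 -0.04, Klf1 -0.15 and Cd79a -0.33.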

Other observations

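Some genes that changed with rapamycin in intact BE belonged to none of the lists and were chosen after their values were seen, so they are given as values only, as log2 fold change ± SE with the adjusted p of edgeR's quasi-likelihood test. Crebrf, a regulator of the stress factor CREB3, rose (0.89 ± 0.15, adjusted p = 0.000182), as did Klhl24, a ubiquitin ligase adaptor (0.73 ± 0.10, adjusted p = 4.72e-06), and Hbp1, a transcriptional repressor (0.67 ± 0.10, adjusted p = 1.74e-05). Pink1, the kinase that marks damaged mitochondria, rose as well (0.61 ± 0.10, adjusted p = 0.000192). Among chromatin genes the histone demethylases Kdm5a (0.43 ± 0.10, adjusted p = 0.00665) and Kdm5b (0.40 ± 0.08, adjusted p = 0.00308), the methyltransferase Kmt2c (0.39 ± 0.10, adjusted p = 0.0152) and the DNA dioxygenase Tet2 (0.34 ± 0.08, adjusted p = 0.0116) rose by small amounts. The calls of Crebrf, Klhl24, Hbp1 and Pink1 passed in all 6 fits that left out 1 compared library, those of Kdm5a and Tet2 in 3, of Kdm5b in 4 and of Kmt2c in 2.

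Among genes of mitochondrial proteins, changes of both signs were found. Prdx3, a mitochondrial peroxiredoxin, fell (-0.50 ± 0.09, adjusted p = 0.000316). Cyc1 of complex III (-0.29 ± 0.08, adjusted p = 0.0218), Ogdh of the citrate cycle (-0.28 ± 0.08, adjusted p = 0.0269) and its partner Dld (-0.28 ± 0.08, adjusted p = 0.0354) fell, while Dlst, another gene of that enzyme complex, rose (0.25 ± 0.07, adjusted p = 0.0348). Prdx3 passed in all 6 of those fits, Cyc1 in 2, Ogdh and Dlst in 1 and Dld in 0.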
